A study of Mus musculus with 2 samples.

Results

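The Mir23, Mir27 and Mir24 genes form a pair of paralogous miRNA clusters in the mouse, Mir23a, Mir27a and Mir24-2 on chromosome 8 and Mir23b, Mir27b and Mir24-1 on chromosome 13. These 6 genes were chosen by their symbols among 2202 listed miRNA genes. The rule used none of their values, but earlier results of these data were known. All 6 reached the minimum of 10 counts in each library that counts as detected here. MicroRNA sequencing had been done on total RNA of hearts from male B6CASTF1/J mice aged 25 days, a first-generation cross of C57BL/6J with CAST. The 2 libraries are numbered as biological replicates 1 and 2 of a single group, so the labels define no contrast, and the libraries can only be set against each other. The animals carry separate numbers in the labels and a common donor identifier, so the spread between the libraries may in part be technical.

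A miRNA cluster is transcribed as a single primary transcript, from which Drosha cuts hairpins and Dicer cuts mature strands. The seed, bases 2 to 8 of the mature strand, does most of the pairing with target transcripts. MicroRNAs of the Mir23, Mir27 and Mir24 clusters are abundant in endothelial cells and have been studied for their effects on angiogenesis, and in heart muscle for their part in hypertrophy, lipid handling and survival after infarction. The chromosome 8 and chromosome 13 clusters keep the same order of hairpins, with Mir23 first, Mir27 second and Mir24 last.

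The mature 3′ strands are shown because they differ so little between the clusters. Sequences are from RefSeq, build GRCm38.p6, 5′ to 3′, with the seed in capitals. The first is that of Mir23a (chr8:84208563-84208583, plus strand), the second that of Mir27a (chr8:84208727-84208747, plus strand), and the third that of Mir27b (chr13:63300760-63300780, plus strand). The fourth, miR-24-3p, comes from both Mir24-2 (chr8:84208875-84208896, plus strand) and Mir24-1 (chr13:63301251-63301272, plus strand).
mmu-miR-23a-3p: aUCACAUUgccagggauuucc
mmu-miR-27a-3p: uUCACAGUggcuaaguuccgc
mmu-miR-27b-3p: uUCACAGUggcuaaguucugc
mmu-miR-24-3p: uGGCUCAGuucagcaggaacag
From the 5′ end, miR-27a-3p and miR-27b-3p had 18 identical bases and a single difference over 21 bases, C19U, which lies outside the seed. The 22 bases of miR-24-3p were identical at both loci, so a read of that mature strand alone cannot be assigned to 1 of them. The first 18 of the 21 bases of miR-23a-3p, its seed among them, were also found in the Mir23b hairpin. No mature 3′ strand was listed for Mir23b in the RefSeq table used, so none is shown. The 3′ seeds of Mir27 and Mir24 therefore did not separate the clusters, whereas miR-23a-3p and miR-27a-3p, which come from the same transcript, had different seeds and differed at 10 of 21 bases.

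The opposite strands of the Mir24 hairpins are shown because they hold bases that tell the loci apart, again with the seed in capitals, that of Mir24-2 from chr8:84208839-84208860 and that of Mir24-1 from chr13:63301213-63301235, both on the plus strand.
mmu-miR-24-2-5p: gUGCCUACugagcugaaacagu
mmu-miR-24-1-5p: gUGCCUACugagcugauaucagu
The first 16 bases of these 5′ strands were the same, which left 6 bases of 22 in miR-24-2-5p and 7 bases of 23 in miR-24-1-5p. The 5′ strands of Mir27 shared only their first 2 bases and differed at 8 of 22, and their seeds differed, as did those of the Mir23 5′ strands. The seed of miR-23a-5p, GGGUUCC, stands at bases 1 to 7 of miR-23b-5p, shifted by 1 base.

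The hairpins are shown with their longest shared run in capitals (Mir23a, chr8:84208518-84208592; Mir23b, chr13:63300484-63300557; Mir27a, chr8:84208672-84208758; Mir27b, chr13:63300712-63300784; Mir24-2, chr8:84208815-84208921; Mir24-1, chr13:63301208-63301275; all on the plus strand).
Mir23a: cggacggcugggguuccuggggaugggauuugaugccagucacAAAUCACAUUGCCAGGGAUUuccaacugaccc
Mir23b: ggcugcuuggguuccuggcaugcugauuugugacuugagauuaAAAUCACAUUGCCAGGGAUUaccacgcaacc
Mir27a: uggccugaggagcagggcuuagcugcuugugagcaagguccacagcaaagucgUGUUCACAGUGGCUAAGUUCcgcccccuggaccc
Mir27b: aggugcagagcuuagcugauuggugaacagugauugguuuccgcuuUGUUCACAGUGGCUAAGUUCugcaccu
Mir24-2: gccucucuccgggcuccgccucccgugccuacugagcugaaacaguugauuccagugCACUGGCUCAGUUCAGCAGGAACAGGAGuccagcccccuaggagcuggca
Mir24-1: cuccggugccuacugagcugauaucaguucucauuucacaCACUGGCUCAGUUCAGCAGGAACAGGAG
The shared run was 20 bases long between the Mir23 hairpins, 20 between the Mir27 hairpins and 28 between the Mir24 hairpins, where it covers the whole of miR-24-3p and flanking bases on each side. In the RefSeq table all 6 hairpins matched the annotated genes in sequence and start.

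The chromosome 8 cluster spanned 404 bases, with 79 bases between Mir23a and Mir27a and 56 bases between Mir27a and Mir24-2. The chromosome 13 cluster spanned 792 bases, with 154 bases between Mir23b and Mir27b and 423 bases between Mir27b and Mir24-1. In GENCODE M21 (mm10) the chromosome 8 cluster lies between genes, apart from 2 bases of Mir24-2 that overlap the long non-coding RNA Gm26532. The chromosome 13 cluster lies inside the protein-coding gene 2010111I01Rik on the same strand, and inside Fancc, a Fanconi anaemia gene, on the opposite strand. Mir23b overlapped no exon of its host. Mir27b lay in 1 exon of a host transcript annotated as a target of nonsense-mediated decay, and Mir24-1 overlapped 4 host exons, of transcripts annotated as nonsense-mediated decay, processed or retained-intron. Each Mir24 gene also faces a miRNA gene on the other strand, Mir3074-2 at Mir24-2 and Mir3074-1 at Mir24-1.

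**Figure D1:**
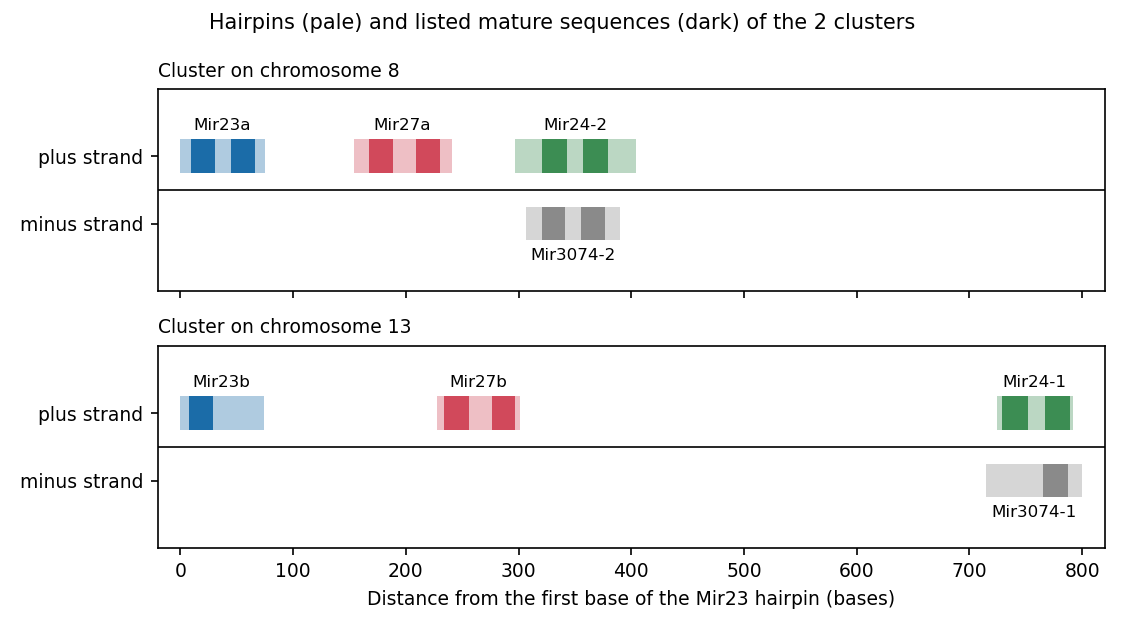
Map of the hairpins (pale) and the mature sequences listed in RefSeq (dark) of both clusters, drawn to scale as distance in bases from the first base of the Mir23 hairpin. The order of the 3 hairpins is the same, while Mir24-1 lies 423 bases from Mir27b and Mir24-2 only 56 bases from Mir27a.

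Of 13210462 reads in replicate 1 and 14363882 in replicate 2, 37.3% and 36.4% fell on the strand of a miRNA gene and were counted for it. Reads placed at several loci, 41.6% and 37.4% of the reads in replicates 1 and 2, were tallied apart from the genes. These assigned counts, scaled to a total of 1000000 per library (CPM), are the levels used here, and intervals from counts cover counting error only. The heart muscle miRNAs Mir208a, Mir208b and Mir499 were all detected and held 0.449% of the assigned counts in replicate 1 and 0.651% in replicate 2. Other miRNA genes known for heart muscle were low: Mir133a-1 (3 counts in replicate 1 and 30 in replicate 2), Mir133a-2 (6 and 7) and Mir133b (7 and 10) were below detection. Mir1a-1 (14 and 12) and Mir1a-2 (203 and 180) were detected. Reads placed at several loci are in none of these counts, so a low count need not mean a low level of the mature miRNA. Markers of neurons, 6 genes, were below detection throughout, and 4 of them had 0 counts in both libraries. For the same reason these counts do not show that neuronal miRNAs were absent. The red cell markers Mir451a, Mir144 and Mir486 were all detected and held 2.25% in replicate 1 and 0.233% in replicate 2, and the 4 fibroblast markers, of which Mir199a-1 was at 0 in both, held 0.342% and 0.952%. In bulk tissue, fewer cells of a type and less RNA per cell cannot be told apart.

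Within both clusters and in both libraries the level in assigned counts was highest at Mir23, lower at Mir27 and lowest at Mir24. Reads of miR-24-3p match both Mir24 loci and cannot be assigned to 1 of them, so the Mir24 counts do not measure that strand. The 6 genes together held 11.1% of the assigned counts in replicate 1, with an exact interval of 11.09% to 11.15%, and 8.02% in replicate 2, with one of 7.99% to 8.04%. The Mir23 genes made up nearly all of this, 10.7% of the assigned counts in replicate 1 and 7.25% in replicate 2. The Mir27 genes held 0.369% and 0.740%, and the Mir24 genes 0.0205% and 0.0263%. Members of 1 cluster were thus listed at levels far apart. The summed share of the 3 red cell markers was also higher in replicate 1, with Mir451a and Mir144 higher and Mir486 lower there, and their part in these shares was not tested.

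Mir23a, the first hairpin of the chromosome 8 cluster, had 251446 counts (50994 CPM) in replicate 1 and 160559 counts (30701 CPM) in replicate 2. Mir23b, its counterpart on chromosome 13, had 277570 counts (56293 CPM) in replicate 1 and 218646 counts (41808 CPM) in replicate 2. Both were higher in replicate 1, and their ranges overlapped. By mean level they were the 8th and the 6th highest genes of all, at 40848 ± 14350 CPM for Mir23a and 49050 ± 10242 CPM for Mir23b (SD, n = 2). The nearest detected genes were Mirlet7b above Mir23b, Mirlet7d between the Mir23 genes, and Mir139 below Mir23a, and each overlapped its Mir23 neighbour in range.

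Mir27a, the second hairpin, had 4083 counts (828 CPM) in replicate 1 and 8410 counts (1608 CPM) in replicate 2. Mir27b had 14093 counts (2858 CPM) in replicate 1 and 30268 counts (5788 CPM) in replicate 2. Both were lower in replicate 1, and Mir27b was above Mir27a without overlap. Mean levels were 1218 ± 552 CPM for Mir27a and 4323 ± 2071 CPM for Mir27b (SD, n = 2), the 68th and the 30th by rank. Mir144 and Mir484 lay next to Mir27a, and Mir322 and Mir320 next to Mir27b, all with overlapping ranges.

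Mir24-2, the last hairpin on chromosome 8, had 681 counts (138 CPM) in replicate 1 and 774 counts (148 CPM) in replicate 2. Mir24-1 had 331 counts (67.1 CPM) in replicate 1 and 599 counts (115 CPM) in replicate 2. Mir24-2 was above Mir24-1 without overlap, the reverse of the order of the clusters at the other positions. The Mir24 counts leave out reads of miR-24-3p, which match both loci. Mean levels were 143 ± 6.99 CPM for Mir24-2 and 90.8 ± 33.5 CPM for Mir24-1 (SD, n = 2), the 133rd and the 156th by rank. Mir467e and Mir337 lay next to Mir24-2, and Mir26a-1 and Mir138-1 next to Mir24-1, all overlapping in range. From high to low, the members ran Mir23b, Mir23a, Mir27b, Mir27a, Mir24-2 and Mir24-1, and Mir23b and Mir23a were the only neighbours in this order whose ranges overlapped.

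**Figure D2:**
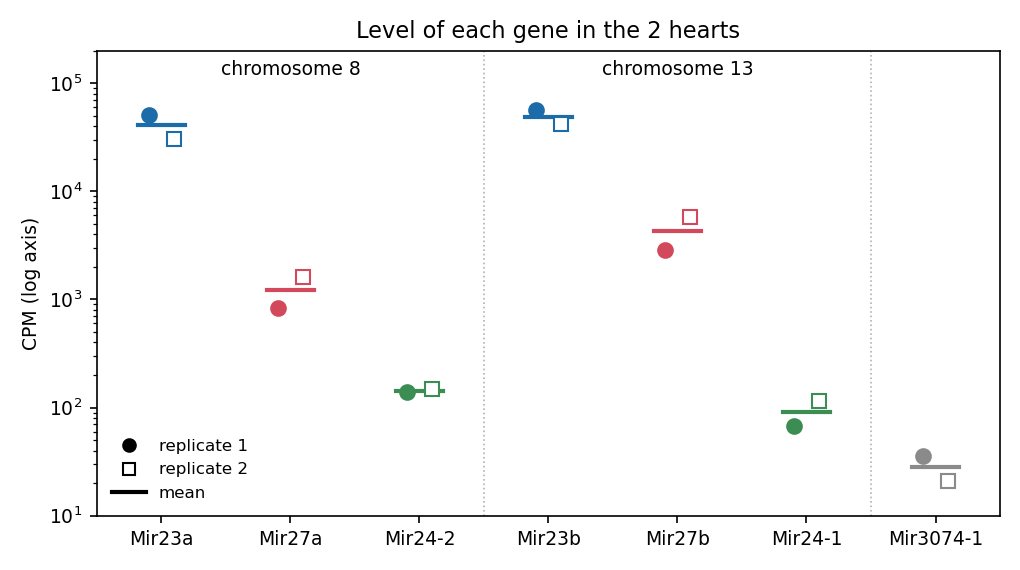
Level in CPM (log axis) of the 6 members and of Mir3074-1 in replicate 1 (filled circles) and replicate 2 (open squares), with the mean as a line. In each cluster the 3 genes occupy separate ranges, from 50994 and 30701 CPM for Mir23a in replicates 1 and 2 to 138 and 148 CPM for Mir24-2.

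Because mature sequences are shared between loci, detection was also counted over all genes with a RefSeq mature sequence. Of 90 genes with a mature sequence identical to one at another locus, 42 were detected (46.7%), with a median of 76.3 CPM. Of 928 genes without one, 281 were detected (30.3%), with a median of 58.7 CPM. The share detected was higher among genes with an identical copy elsewhere, the class to which the Mir24 genes belong, and the difference was not tested. At a minimum of 1 count the shares were 54.4% and 50.5%. The classes hold different genes, so these shares cannot show whether reads of shared sequences were lost from the counts. The part of reads placed at several loci in the level of any member was not tested, since those reads carry no gene in the deposited counts.

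To compare the libraries gene by gene, a two-sided exact binomial test was used, conditional on the sum of both counts, with Benjamini-Hochberg adjustment over the 356 detected genes. The test sets 1 library against another, not conditions, and of all detected genes 63.5% were called, 30.6% higher and 32.9% lower in replicate 1. Of the 6 members, 5 were called, 2 higher and 3 lower in replicate 1. The Mir23 genes were higher in replicate 1, Mir23a by 1.66-fold (exact 95% interval 1.65 to 1.67) and Mir23b by 1.35-fold (1.34 to 1.35). The Mir27 genes were lower in replicate 1, at 0.515 of the replicate 2 level for Mir27a (0.496 to 0.535) and 0.494 for Mir27b (0.484 to 0.504). Mir24-1 was lower in replicate 1 as well, at 0.586 of the replicate 2 level (0.511 to 0.671). Mir24-2 stood at 0.933 of the replicate 2 level (0.841 to 1.04), with an adjusted p of 0.255 by the exact binomial test.

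At this depth counting error is small, so these ratios were also read against the spread of all genes. The log2 ratio of replicate 1 over replicate 2 had an SD of 0.86 over the detected genes. The members' log2 ratios were 0.73 for Mir23a, -0.96 for Mir27a, -0.10 for Mir24-2, 0.43 for Mir23b, -1.02 for Mir27b and -0.77 for Mir24-1. The Mir23 genes lay above 0 and the other members below it. Of the detected genes, 17.7% had an absolute log2 ratio at least as large as that of Mir27b, which was the farthest of the members from 0. The median absolute log2 ratio was 0.75 for the members and 0.45 for the detected genes.

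**Figure D3:**
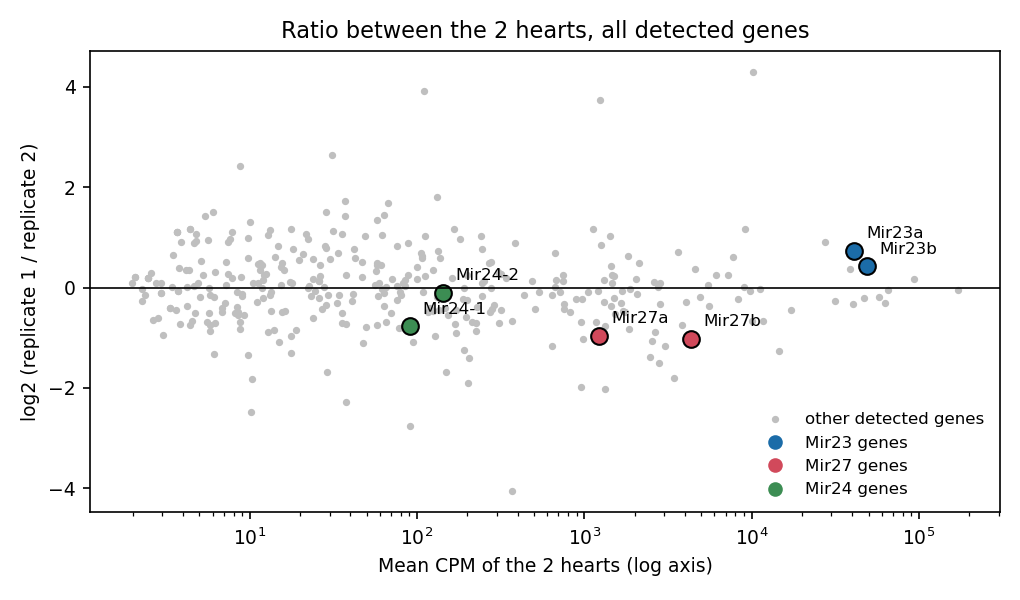
Log2 ratio of replicate 1 over replicate 2 against mean CPM (log axis) for the 356 detected genes, with the members in colour by family. The Mir23 genes lie above 0 and the Mir27 genes near -1, inside the spread of the other genes.

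Between paralogues, the chromosome 8 gene was below the chromosome 13 gene for Mir23 and Mir27 and above it for Mir24, in both libraries. The Mir23a over Mir23b ratio of counts was 0.906 in replicate 1 (exact interval 0.901 to 0.911) and 0.734 in replicate 2 (0.730 to 0.739). The Mir27a over Mir27b ratio was 0.290 in replicate 1 (0.280 to 0.30) and 0.278 in replicate 2 (0.271 to 0.285). The Mir24-2 over Mir24-1 ratio was 2.06 in replicate 1 (1.80 to 2.35) and 1.29 in replicate 2 (1.16 to 1.44). Of these ratios the one of the Mir27 pair, whose 3′ strands differ by C19U alone, was the most alike in the libraries.

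The odds between the libraries were tested for the 3 pairs by Fisher's exact test, two-sided, with Benjamini-Hochberg adjustment over the pairs. For Mir23a and Mir23b the odds in replicate 1 were 1.23 times those in replicate 2 (95% interval 1.22 to 1.24), with a p-value too small for the software to represent. For Mir24-2 and Mir24-1 they were 1.59 times as high (1.34 to 1.89), with an adjusted p of 1.00e-07 by Fisher's exact test. For Mir27a and Mir27b they were 1.04 times as high (0.999 to 1.09), with an adjusted p of 0.0533 by Fisher's exact test, and the interval reaches up to a difference of 1.09 times. In samples taken as units, an exact permutation over the 2 libraries cannot give a p below 0.5.

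Between positions of a cluster, the Mir23 over Mir27 ratios differed more between the libraries than any of the 3 paralogue ratios. Mir23a stood 61.6-fold above Mir27a in replicate 1 and 19.1-fold above it in replicate 2. Mir23b stood 19.7-fold above Mir27b in replicate 1 and 7.22-fold above it in replicate 2. The excess of Mir23 over Mir27 was thus larger in replicate 1 in both clusters, by 1.69 on the log2 scale on chromosome 8 and by 1.45 on chromosome 13. Mir27a was 6.0-fold above Mir24-2 in replicate 1 and 10.9-fold in replicate 2, and Mir27b was 42.6-fold above Mir24-1 in replicate 1 and 50.5-fold in replicate 2. Over the whole cluster, Mir23a was 369-fold above Mir24-2 in replicate 1 and 207-fold in replicate 2, and Mir23b was 839-fold above Mir24-1 in replicate 1 and 365-fold in replicate 2. The ratios to the Mir24 genes rest on assigned counts, without reads that match both Mir24 loci. Reads that end within the first 18 bases of miR-23a-3p, miR-27a-3p or miR-27b-3p also match the paralogue. Genes differ in ligation during library preparation, in length and in reads placed at several loci. For that reason no test between genes was run, and these ratios of counts need not equal ratios of the mature miRNAs.

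**Figure D4:**
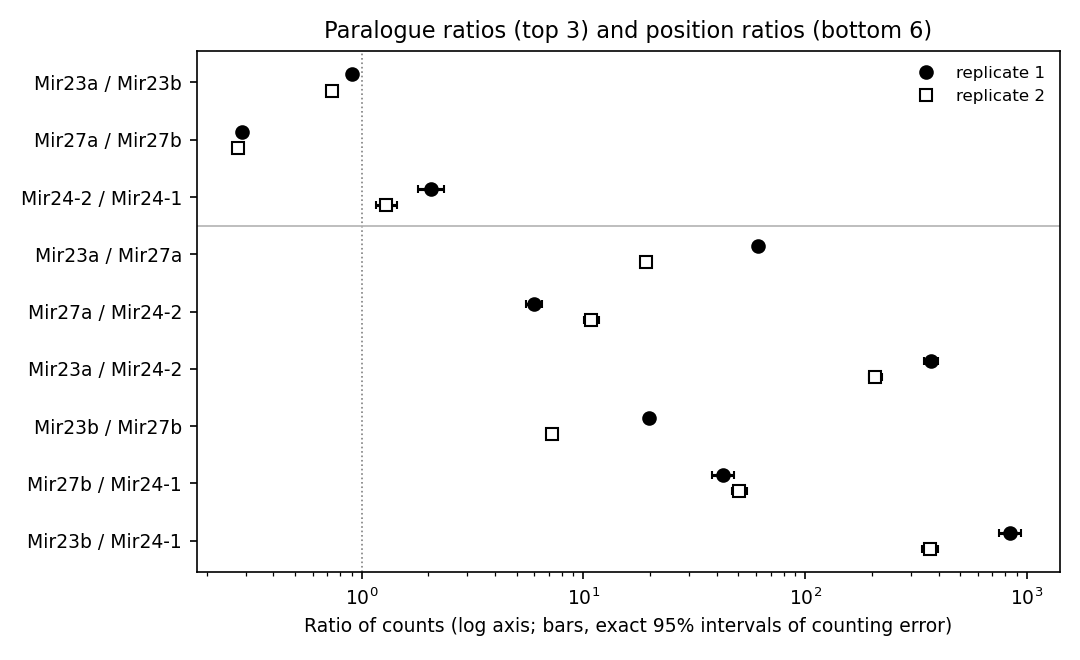
Ratios of counts between paralogues (top 3) and between positions of a cluster (bottom 6) in replicate 1 (filled circles) and replicate 2 (open squares), on a log axis with exact 95% intervals. The Mir27a over Mir27b ratio is 0.290 and 0.278, while the Mir23a over Mir27a ratio is 61.6 and 19.1.

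As shares of each cluster, Mir27a made up 1.59% of the chromosome 8 counts in replicate 1 and 4.95% in replicate 2. Mir27b made up 4.83% of the chromosome 13 counts in replicate 1 and 12.1% in replicate 2. Mir24-2 held 0.266% and 0.456% of its cluster, and Mir24-1 held 0.113% and 0.240% of its own. Mir23a (98.1% and 94.6%) and Mir23b (95.1% and 87.6%) made up the rest. The smaller genes of both clusters thus took a larger share of their cluster in replicate 2.

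The pattern was set beside neighbouring miRNA genes in general. For 103 pairs of detected genes that lie next to each other on a strand, at most 10 kb apart, the median difference of log2 CPM was 2.76, and that of the log2 ratios was 0.53. In the 4 adjacent pairs of these clusters the medians were 4.34 and 1.15, and 11 adjacent pairs differed more in level than Mir23a and Mir27a did. Among 53 pairs of detected genes at different loci that share 18 bases, a comparison chosen after the members' values were seen, the medians were 1.55 and 0.32. For comparison, the log2 ratios differed by 0.30 between the Mir23 paralogues, 0.06 between the Mir27 paralogues and 0.67 between the Mir24 paralogues.

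Mir15 and Mir16, which likewise sit side by side in a pair of clusters and are known as regulators of the cell cycle, showed a like split between the libraries, which was noticed after the values were seen. Mir16-1 (9445 counts in replicate 1 and 4941 in replicate 2) and Mir16-2 (1526 and 944) were both higher in replicate 1, with log2 ratios of 1.02 and 0.78. Mir15a (4411 and 5476) and Mir15b (14064 and 24959) were both lower in replicate 1, with log2 ratios of -0.23 and -0.74. Cluster mates thus differed by 1.25 and 1.52 in log2 ratio, and paralogues by 0.24 for Mir16 and 0.52 for Mir15. This family and the Mir29 and Mir181 families were chosen because a position of their paralogous clusters gives the same mature sequence. Reads of that sequence match several loci, so the ratios of genes at that position rest on the remaining reads.

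The Mir29 genes, known for repressing collagens and other matrix transcripts, showed no such split. All 4 had log2 ratios below 0, from -1.31 for Mir29b-1 to -0.33 for Mir29a, and 3 were called, where 63.5% of all detected genes were called and 32.9% were called lower. The paralogues Mir29a and Mir29c differed by 0.12 in log2 ratio and Mir29b-1 and Mir29b-2 by 0.92, while the cluster mates Mir29a and Mir29b-1 differed by 0.98 and Mir29c and Mir29b-2 by 0.06. Of the Mir181 genes, which are known from lymphocytes and endothelium, Mir181a-1 alone was higher in replicate 1, with a log2 ratio of 0.23. The other Mir181 genes ranged from -0.70 for Mir181d to -0.08 for Mir181c, and Mir181b-1 was not called. In the Mir29 and Mir181 families paralogues were thus closer in log2 ratio than cluster mates in some pairs and not in others.

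**Figure D5:**
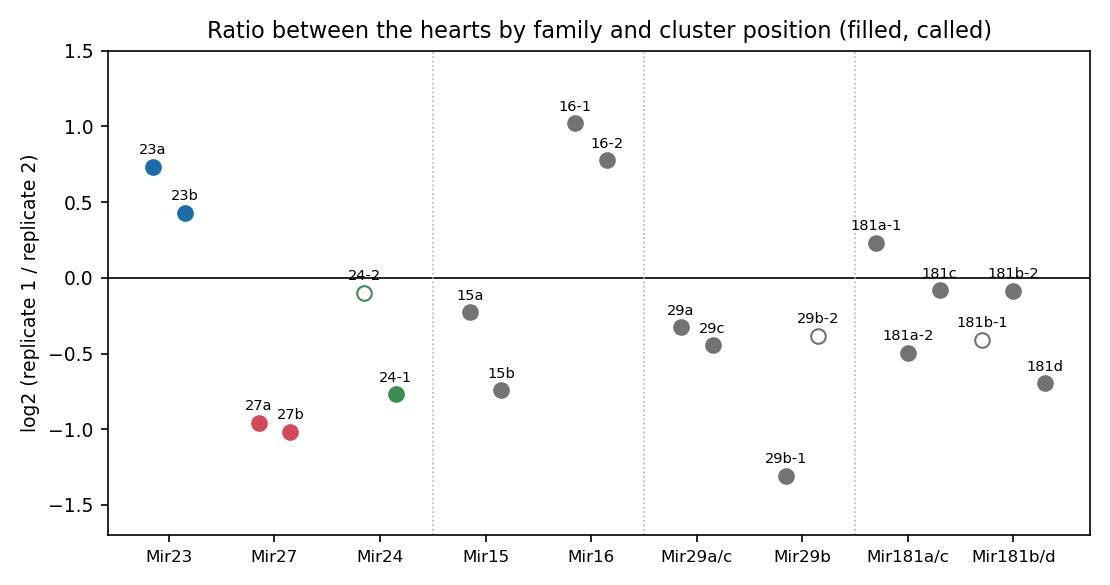
Log2 ratio of replicate 1 over replicate 2 for the Mir23, Mir27 and Mir24 genes and 3 other families in paralogous clusters, with called genes filled. Mir23 and Mir16 genes lie above 0, and Mir27, Mir24 and Mir15 genes lie below it, with Mir24-2 not called.

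By seed, miR-27a-3p and miR-27b-3p formed a group of their own among the RefSeq mature sequences. The seed of miR-27-3p, UCACAGU, also stands at bases 1 to 7 of miR-128-3p, which is best known from neurons, so its reading frame is shifted by 1 base; this pair was noticed after the sequences were read.
mmu-miR-128-3p: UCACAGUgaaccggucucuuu
The capitals mark the 7 bases shared with the seed of miR-27-3p, in the copy at Mir128-1 (chr1:128202404-128202424, plus strand). Mir128-1 had 1587 counts in replicate 1 and 829 in replicate 2, and Mir128-2 had 209 and 78. Both were higher in replicate 1, by 2.03-fold and 2.84-fold, where both Mir27 genes were lower. The seed of miR-24-3p was shared with 4 other mature sequences of the RefSeq table, miR-5124b, miR-6369, miR-6410 and miR-6413. Of their genes, Mir6369, Mir6410 and Mir6413 had 0 counts in both libraries. A level in assigned counts below 0.608 CPM in replicate 1, or below 0.574 CPM in replicate 2, would not have been seen. Reads placed at several loci are in none of these counts, so the bounds do not cover them.

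On the strand facing the Mir24 genes, Mir3074-1 had 177 counts (35.9 CPM) in replicate 1 and 109 counts (20.8 CPM) in replicate 2. Mir3074-2 had 0 counts in both. Mir3074-1 was higher in replicate 1 by 1.72-fold (exact interval 1.35 to 2.21), with an adjusted p of 1.45e-05 by the exact binomial test, whereas Mir24-1 on the other strand was lower. Mir24-1 counts were 1.87 times those of Mir3074-1 in replicate 1 (1.55 to 2.26) and 5.5 times in replicate 2 (4.47 to 6.8). The 22 bases of miR-3074-5p were identical at both Mir3074 loci, as those of miR-24-3p were at both Mir24 loci. Reads of these strands match several loci and are left out, so the counts and ratios here do not measure them. The strand was kept in these counts, and without it reads of all 4 genes were ambiguous and each was listed at 0.

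Other miRNAs of the processes in which these clusters have been studied were read against the 63.5% of all detected genes that were called, 30.6% higher and 32.9% lower in replicate 1. Of 12 vascular miRNA genes, 11 were detected, 5 were higher and 6 lower in replicate 1, with a median log2 ratio of -0.09, against -0.02 over all detected genes. Mir126a, the endothelial miRNA, stood at 0.812 of its replicate 2 level, Mir130a was 1.63-fold higher in replicate 1, and Mir221 and Mir222, which act on vessel growth, stood at 0.564 and 0.311. Of 16 genes linked to cardiac hypertrophy, 12 were detected, 2 higher and 5 lower in replicate 1, and 5 were not called, with a median log2 ratio of -0.09, so the share called was near that of all genes. Mir195a and Mir499 were the higher ones, at 1.55 and 1.06 times their replicate 2 level. Mir21a, a fibroblast-rich miRNA, stood at 0.288 of its replicate 2 level, Mir22 at 0.416 and Mir208a, which is encoded in a cardiac myosin gene, at 0.382. Beside these, the endothelial markers held 5.64% of the counts in replicate 1 and 6.94% in replicate 2, of which Mir126b gave 3 counts in each. Smooth muscle markers held 3.00% and 3.64%, and leukocyte markers 0.479% and 0.513%. The leukocyte markers went different ways, with Mir142 1.85-fold higher in replicate 1 and Mir155 not called. Mir150 and Mir223 stood at 0.720 and 0.749 of their replicate 2 level. The part of these markers in the members' differences was not tested.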

How the data were processed

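MicroRNA-seq libraries from hearts of 2 mice were analysed, made from RNA with a size range under 30, per the labels. The authors deposited raw read counts, in whole numbers, for each miRNA gene of GENCODE M21 on mm10, per the text accompanying the files. The aligner and counter were not given in the sources used here. Reads at several loci were tallied apart by the authors, per the row names, and CAST alleles were counted against a C57BL/6J genome. The label descriptions give the age in months once and in days elsewhere; days were used.

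The count column for the gene's own strand was used, and 4 entries that name no gene (unmapped, several loci, no gene, ambiguous; 62.7% of reads in replicate 1 and 63.6% in replicate 2) were left out. Symbols and coordinates came from GENCODE M21, and sequences from RefSeq. Log2 ratios use a pseudocount of 0.5 counts. With 1 group there is no contrast, so edgeR's quasi-likelihood test was not fitted, and exact binomial and Fisher tests were run in scipy 1.17.1, at an adjusted threshold of 0.05. Scaling factors came from edgeR 4.0.16 and DESeq2 1.42.0. Intervals of ratios and shares are Clopper-Pearson, and those of odds are on the log scale from the 4 counts. The binomial test and the interval of a ratio were tried on simulated counts with counting error only, and Fisher's test was not tried. That simulation holds no spread between libraries, so it cannot show how the calls behave under such spread.

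Genes named are the members, genes facing them, their neighbours by level, genes with their seeds, 3 comparable families and lists of vascular, hypertrophy and cell type miRNAs, of which 2 names were matched through synonyms. Mir128-1 and Mir128-2 were added after their sequences were seen. The members and lists were chosen with earlier results of these data known. Alternatives changed the scaling, the count minimum, the strand, the pseudocount and the distance of neighbours, or left out a library.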

Additional observations from a re-analysis of the deposited data

Results flagged for a closer look

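Counts on the opposite strand of Mir24-1, a column that the comparisons above do not use for that gene, stood at 177 in replicate 1 and 109 in replicate 2, above the 3 counts that a count of 0 allows. These are the counts listed for Mir3074-1 on its own strand. Mir24-2 had 0 counts on the opposite strand in both libraries.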

How the results depend on the processing

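All 6 members' log2 ratios kept their direction and their side of the threshold with TMM factors, DESeq2 size factors, a minimum of 1 or 100 counts and, for the Mir23 and Mir27 genes, unstranded counts; Mir27b ranged from -1.02 to -0.97 and Mir24-2 from -0.10 to -0.05. Unstranded counts gave no value for Mir24-2 or Mir24-1, at 0 in both libraries. The genes called numbered 226, against 221 with TMM, 220 with DESeq2 size factors, 237 with at least 1 count, 180 with at least 100 counts and 201 unstranded. The mean share of the 6 members, 9.57%, was 13.1% with unstranded counts and 3.53% of all reads. Without 1 library it ranged from 8.02% to 11.1%. The share detected among genes with an identical mature sequence elsewhere, against the others, was 46.7% against 30.3%; it was 54.4% against 50.5% at 1 count, 26.7% against 18.8% at 100 counts, and 38.5% against 30.3% with a shared run of 20 hairpin bases. The neighbour difference was 3.01 within 1 kb. These alternatives by construction change the denominator, the minimum or the pairs. The Mir24-2 over Mir24-1 mean log2 ratio of 0.70 was 0.37 without replicate 1 and 1.04 without replicate 2. No paired analysis was possible because both libraries form a single group. With 2 libraries of 1 group, no spread between animals can be separated from that of library preparation, and reads of miR-24-3p cannot be assigned to a locus.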
